A study of Mus musculus with 20 samples.

Results

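The vascular endothelial growth factor (VEGF) family was examined through 9 genes, chosen by name in both count tables out of the 54532 genes listed. They comprise 4 ligands (Vegfa, Vegfb, Vegfc and Pgf), 3 receptor tyrosine kinases (Flt1, Kdr and Flt4) and 2 neuropilin co-receptors (Nrp1 and Nrp2). Bulk RNA-Sequencing was made on 14 tissue libraries and 6 libraries of sorted cells from mice carrying colorectal liver metastases (CRLM) of Mc38, a colon adenocarcinoma cell line of C57BL/6 origin. All mice were wild type (WT), 6 to 8 weeks old C57BL/6 mice by the Methods, which give females whereas the labels of the tissue series give males. The con livers (2 libraries) received normal saline and were taken on day 0, and every other group received 1000000 Mc38 cells. Low-content metastases (Lt, 2 libraries) and Mt3 (2) were taken on day 9, Mt2 (2) and Mt1 (2) on day 11, and high-content metastases (Ht, 3) and remote tumor-free liver (L-con, 1) on day 12. Mt3, Mt2 and Mt1 are medium-content metastases, and the samples of Lt to Ht held tumor together with liver. F4/80+ cells (F4/80+TAM, 3 libraries) and CD11b+ cells (CD11b+TAM, 3) were drawn from day 11 Mt2 metastases with magnetic beads. The Methods describe Ht 1 and Ht 3 as identical material, so they were summed and Ht counted as 2 samples. Their counts were no closer than those of the other Ht pairs (chi-square per degree of freedom 30.3 for Ht 1 and 3, 29.1 for 1 and 2, 13.2 for 2 and 3). Whether libraries of sorted cells came from separate mice is not given, and p-values then measure only the spread between these libraries.

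VEGF-A binds KDR (VEGFR2), the main signaling receptor of blood vessel endothelium, and FLT1 (VEGFR1), which binds it tightly but signals weakly and acts largely as a decoy. VEGF-B and placental growth factor (PGF) bind FLT1 alone among the kinases, while VEGF-C binds FLT4 (VEGFR3), the receptor of lymphatic and some fenestrated endothelium, and after processing also KDR. Neuropilins are co-receptors without a kinase of their own; NRP1 serves VEGF-A and NRP2 serves VEGF-C, and both also bind class 3 semaphorins. In normal liver, sinusoidal endothelium carries KDR and FLT4, and hepatocytes are a source of VEGF-A.

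The libraries held 16032085 to 20548370 counts, and 3 counts, the floor used here, corresponded to 0.146 to 0.187 CPM (counts per 1000000 counts of the library) before scaling. The summed level of 13 macrophage markers was 19719 to 32103 CPM in sorted cells and 605 to 3394 CPM in tissue. The summed level of 13 hepatocyte markers was 183560 to 219220 CPM in con, 3927 to 5842 CPM in Ht and 107 to 367 CPM in sorted cells. The summed level of 9 epithelial markers was 2.07 to 27.5 CPM in every group, con included, with up to 5 of the 9 at 0. Because the tissue libraries and the sorted libraries come from different tables, effects of the table on a comparison across them cannot be told apart from those of the sample type. In bulk samples, fewer cells of a type and less RNA per cell cannot be told apart.

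CPM values are scaled by trimmed mean of M-values (TMM). A gene was called at a Benjamini-Hochberg adjusted p of at most 0.05 and a log2 fold change of at least 1 in size by edgeR's quasi-likelihood test, which is the source of every adjusted p given. On the TMM scale the family separated by member across the 8 groups with replicates, with L-con, at 1 library, set aside. Vegfa, Kdr and Flt4 were highest in con liver, Vegfc, Pgf and Nrp2 were highest in Ht, Nrp1 was highest in F4/80+TAM, Flt1 was highest in Mt3 and con and lowest in CD11b+TAM, and group means of Vegfb stayed between 20.9 and 30.5 CPM. L-con lay near con for Vegfa (95.3 CPM), Kdr (94.1 CPM) and Flt1 (31.4 CPM), above the con mean for Kdr and above every group mean for Flt1, and was below the other groups for Vegfb (17.6 CPM). Under total-count scaling Vegfc, Pgf and Nrp2 were still highest in Ht, but Vegfa, Kdr and Flt4 were not highest in con, Nrp1 was not highest in F4/80+TAM and Flt1 was not high in con. These orders of group means are descriptions, and neighboring groups mostly overlapped.

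**Figure D1:**
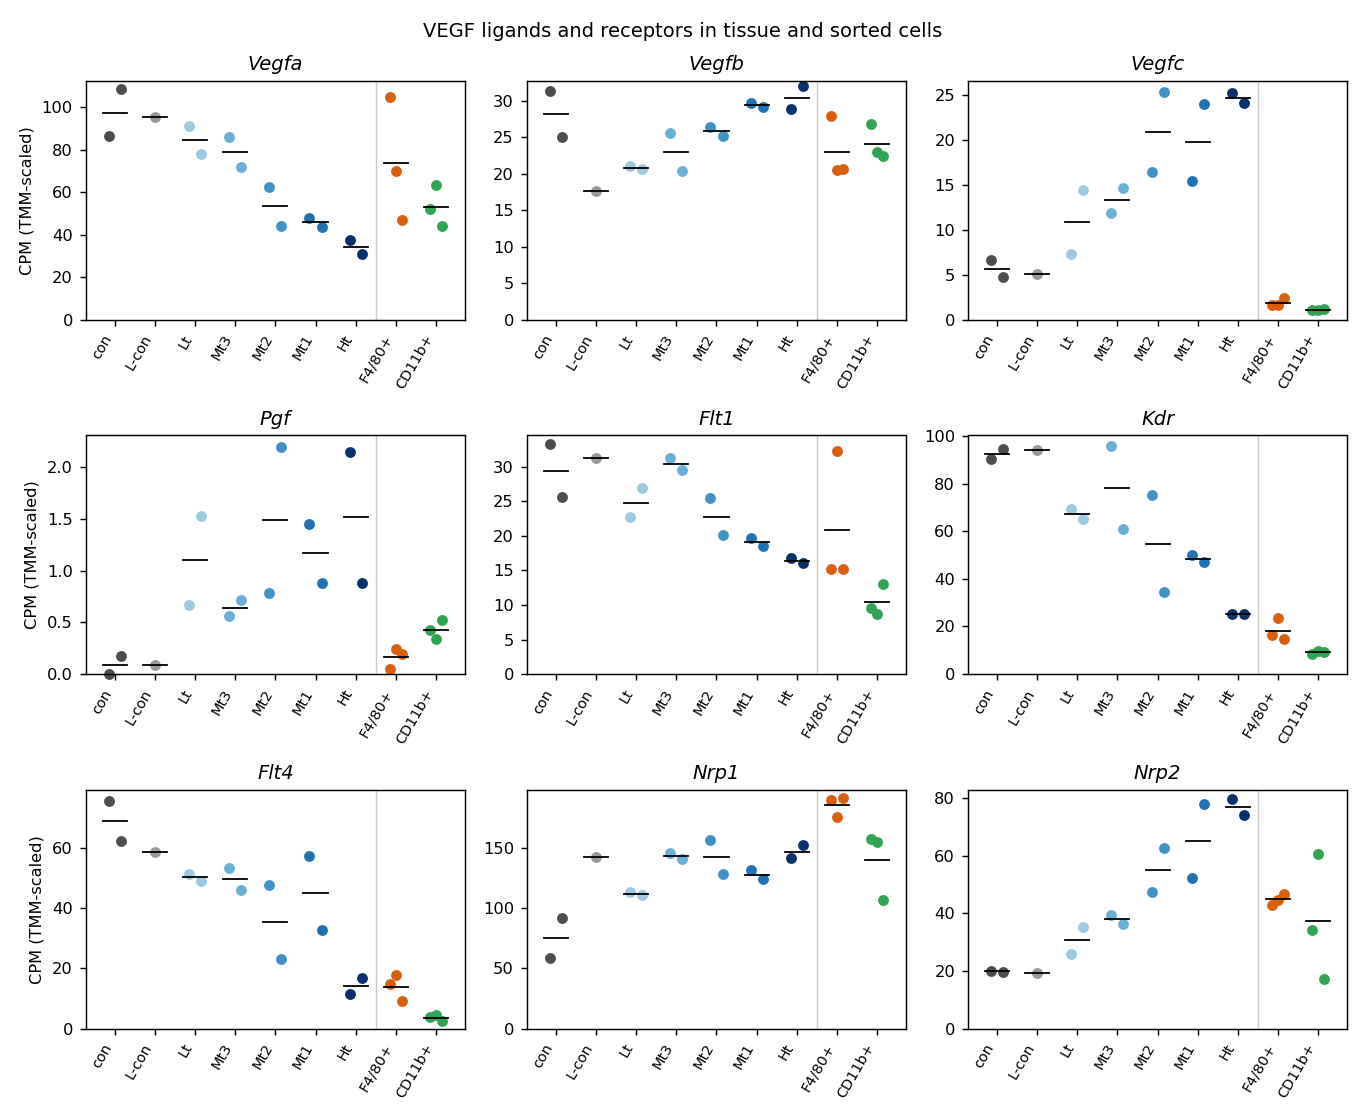
TMM-scaled CPM of the 9 genes (vertical axis, from 0) in each sample, one panel a gene, with the 9 groups on the horizontal axis; points are samples (Ht 1 and 3 summed) and bars are group means. Vegfa, Kdr and Flt4 are lower in Ht than in con and Vegfc and Nrp2 higher, not always by even steps between them, and in the 6 sorted samples Vegfc lies between 1.02 and 2.37 CPM.

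Among the ligands, Vegfa (ENSMUSG00000023951, chr17:46016993-46032369 on GRCm38), the principal angiogenic factor, was at 86.5 and 108 CPM in the 2 con livers. It was at 91.0 and 78.1 CPM (Lt), 86.0 and 71.9 (Mt3), 62.4 and 44.2 (Mt2), 47.9 and 43.5 (Mt1) and 37.5 and 31.04 (Ht). Both Ht samples lay below every other tissue sample on this scale, whereas under total-count scaling Vegfa in Ht (57.3 and 46.5 CPM) overlapped Mt1 (49.3 and 59.5 CPM). F4/80+TAM were at 105, 69.7 and 47.1 CPM and CD11b+TAM at 51.9, 63.3 and 44.0 CPM, a spread in F4/80+TAM that reached from the Mt2 and Mt1 range to that of con. Ordered by mean with L-con (95.3 CPM) set aside, con was followed by Lt, Mt3, F4/80+TAM, Mt2, CD11b+TAM, Mt1 and Ht, and from con to Mt1 each group overlapped the next.

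Vegfb (ENSMUSG00000024962, chr19:6982473-6987651), a ligand tied to fatty acid handling as much as to vessels, was at 31.4 and 25.01 CPM in con, 28.9 and 32.0 in Ht, 20.5 to 28.0 in F4/80+TAM and 22.4 to 26.9 in CD11b+TAM. Its lowest library was L-con at 17.6 CPM. Vegfb was called in none of the 9 comparisons made with TMM scaling.

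Vegfc (ENSMUSG00000031520, chr8:54077606-54187096), the lymphangiogenic ligand, was at 6.59 and 4.74 CPM in con, 7.24 and 14.3 (Lt), 11.8 and 14.7 (Mt3), 16.4 and 25.3 (Mt2), 15.4 and 24.0 (Mt1) and 25.1 and 24.1 (Ht). All metastasis samples lay above both con samples. Sorted cells were the lowest, at 1.62, 1.67 and 2.37 CPM in F4/80+TAM and 1.04, 1.02 and 1.16 CPM in CD11b+TAM, below all tissue samples.

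Pgf (ENSMUSG00000004791, chr12:85166635-85177790) was the least abundant. It had 0 and 2 counts in con and 1 in L-con, all under the floor of 3 counts, against 110 counts in Ht 1 and 3 and 24 in Ht 2. In CPM the metastases ranged from 0.561 in Mt3 1 to 2.20 in Mt2 2, F4/80+TAM were at 0.0505, 0.246 and 0.197 and CD11b+TAM at 0.427, 0.338 and 0.522. Against the con floor of 0.275 CPM per library, mean Pgf was at least 5.52-fold higher in Ht and at least 4.02-fold higher in Lt. Both bounds rest on the higher sample of the pair, since Ht 2 alone was at 0.879 CPM and Lt 1 alone at 0.671 CPM.

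Of the kinase receptors, Kdr (ENSMUSG00000062960, chr5:75932827-75978458) was at 90.4 and 94.4 CPM in con, 69.5 and 65.4 (Lt), 95.9 and 60.9 (Mt3), 75.3 and 34.3 (Mt2), 50.0 and 46.9 (Mt1) and 25.3 and 25.4 (Ht). Sorted cells were lower still, at 16.3, 23.6 and 14.5 CPM in F4/80+TAM and 8.40, 9.85 and 9.46 in CD11b+TAM. Neither sorted group overlapped any tissue sample.

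Flt4 (ENSMUSG00000020357, chr11:49609263-49652739) was at 75.7 and 62.3 CPM in con, 51.5 and 49.0 (Lt), 53.3 and 46.2 (Mt3), 47.7 and 23.2 (Mt2), 57.5 and 32.9 (Mt1) and 11.6 and 16.8 (Ht). F4/80+TAM, at 14.8, 17.7 and 9.32 CPM, overlapped Ht, and CD11b+TAM were lowest at 3.89, 4.399 and 2.61 CPM.

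Flt1 (ENSMUSG00000029648, chr5:147561604-147726011) was at 33.3 and 25.6 CPM in con, 22.8 and 26.9 (Lt), 31.3 and 29.5 (Mt3), 25.5 and 20.1 (Mt2), 19.6 and 18.6 (Mt1) and 16.8 and 16.1 (Ht). In F4/80+TAM it was at 15.2, 32.4 and 15.2 CPM, with 1 library as high as con. CD11b+TAM, at 9.54, 8.75 and 13.1 CPM, were the lowest group.

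Nrp1 (ENSMUSG00000025810, chr8:128358604-128503363) was at 58.2 and 91.5 CPM in con, 113 and 111 (Lt), 146 and 141 (Mt3), 156 and 128 (Mt2), 131 and 124 (Mt1) and 141 and 152 (Ht). L-con, tumor-free liver of a bearing mouse, reached 142 CPM, as high as many metastases on this scale. F4/80+TAM were at 189, 176 and 191 CPM, above every other sample, and CD11b+TAM at 157, 155 and 106. Under total-count scaling F4/80+TAM (209, 196 and 218 CPM) overlapped Ht (216 and 227 CPM) for Nrp1.

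Nrp2 (ENSMUSG00000025969, chr1:62703285-62818695) was at 20.05 and 19.7 CPM in con, 25.9 and 35.4 (Lt), 39.5 and 36.5 (Mt3), 47.6 and 62.8 (Mt2), 52.1 and 77.9 (Mt1) and 79.8 and 74.1 (Ht). F4/80+TAM were close together at 43.0, 44.6 and 46.9 CPM, whereas CD11b+TAM spread from 17.1 through 34.3 to 60.6. Nrp1 and Nrp2 overlap short genes of the same or opposite strand, none above 0.381 CPM in any sample, and the other members overlap no listed gene.

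From normal liver to high-content tumor, 3 members rose and 3 fell. Vegfc rose 4.29-fold (log2 fold change 2.10, SE 0.38, edgeR's quasi-likelihood test adjusted p = 0.00123) and Nrp2 rose 3.83-fold (1.94, SE 0.24, adjusted p = 2.25e-04 by edgeR). Pgf also passed (edgeR adjusted p = 0.00923), with its size given by the bound above. Flt4 fell 4.92-fold (log2 fold change -2.30, SE 0.38, edgeR adjusted p = 7.44e-04), Kdr 3.69-fold (-1.88, SE 0.34, edgeR adjusted p = 0.00115) and Vegfa 2.87-fold (-1.52, SE 0.21, edgeR adjusted p = 3.94e-04). Flt1 (-0.86, SE 0.18, edgeR adjusted p = 0.00290) and Nrp1 (0.95, SE 0.22, edgeR adjusted p = 0.00421) passed on p but not on size, and Vegfb was at 0.09 (SE 0.16). The 6 of 9 called stand beside a background of 49.9% of 17187 genes tested, and with so large a background the count itself is no result about the family. Without con 1 or without Ht 1 and 3 Pgf lost its call (edgeR adjusted p = 0.0556 and 0.0516). Without con 2 Nrp1 and Flt1 were called (1.31 and -1.04), and without Ht 1 and 3 Nrp1 was called (1.01). With Ht 3 left out of Ht, 7 members were called, beside 8530 of 17223 genes. The number was also 7 without the filter on low counts (8881 of 29359 genes) and with only the groups compared (8327 of 15453 genes).

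The direction of some of these values depended on the scaling. The TMM factors of the tissue fit were 0.6865 and 0.7097 in con and 1.603 and 1.575 in Ht. Under total-count scaling the median of all genes stood at 1.28 on the log2 scale instead of 0.09, and 51.3% of genes were called higher and 13.1% lower instead of 25.8% and 24.1%. On that scale Flt1 turned to 0.33, Vegfa (-0.34) and Kdr (-0.70) were no longer called, and Vegfb (1.28) and Nrp1 (2.14) were called higher. Vegfc, Pgf, Nrp2 and Flt4 were called in the same direction under both. Relative to the median gene both scalings gave -1.62 and -1.61 for Vegfa, -1.98 and -1.97 for Kdr, -2.39 and -2.39 for Flt4, 2.01 and 2.02 for Vegfc and 1.84 and 1.85 for Nrp2. A change of scaling moves all genes by nearly the same amount, so these pairs had to be alike and are no check of the calls.

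**Figure D2:**
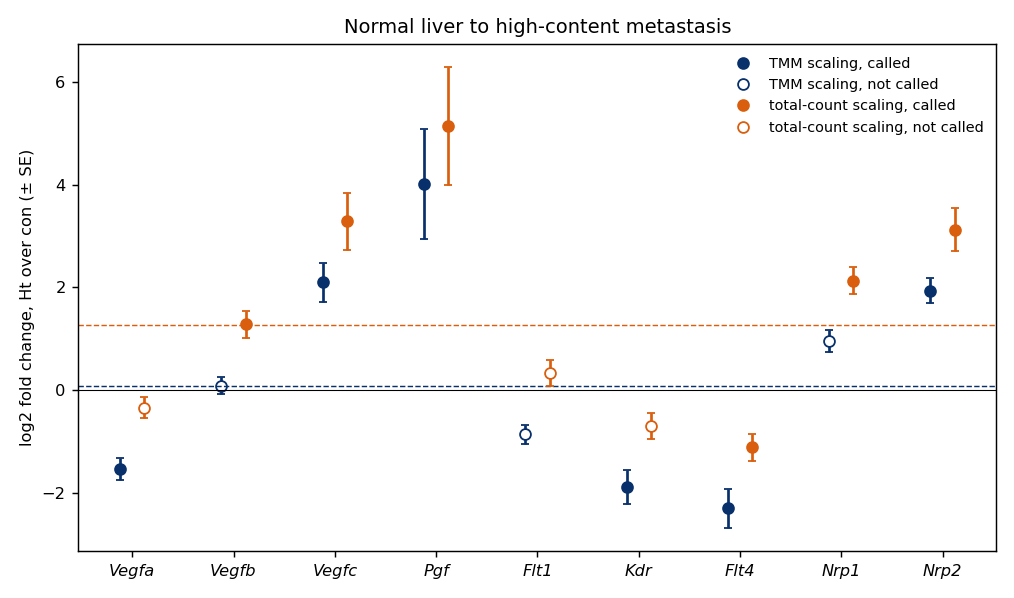
Log2 fold change from con to Ht (vertical axis, bars ± SE) of the 9 genes under TMM and total-count scaling; filled points are called, open points are not, and dashed lines mark the median of all genes at 0.09 and 1.28. The whole set shifts with the scaling, and the 9 genes keep their order, as a common shift must leave it. The fitted value of Pgf is no bound since con had at most 2 counts.

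The shares of the family within a sample do not depend on library scaling. Per transcript length (FPKM), Vegfa made up 47.6% and 59.0% of the 4 ligands in con and 23.2% and 19.4% in Ht, while Vegfc made up 6.34% and 4.52% in con and 27.2% and 26.3% in Ht. Vegfc thus stood at 0.105 ± 0.040 of Vegfa in con and 1.26 ± 0.13 in Ht (FPKM ratio, SD, n = 2 each). Vegfb made up 41.2% ± 6.9 of the ligands in con and 50.6% ± 4.1 in Ht (SD, n = 2 each), with no overlap of the samples. In sorted cells Vegfa and Vegfb made up nearly all of the ligand message, with Vegfa at 52.0% ± 7.0 of the sum among F4/80+TAM libraries and 44.1% ± 5.0 among CD11b+TAM libraries, and Vegfc at 2.57% ± 1.19 and 1.58% ± 0.28 (SD, 3 libraries each).

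Among the 5 receptors Kdr made up 34.0% ± 0.3 and Flt4 27.9% ± 4.9 of the FPKM sum in con, against 10.3% ± 0.3 and 6.33% ± 1.44 in Ht (SD, n = 2 each). Nrp1 went from 25.3% ± 7.0 to 55.0% ± 1.1 and Nrp2 from 5.57% ± 0.29 to 23.9% ± 2.0. Nrp1 was 67.8% ± 4.9 of the receptor message among F4/80+TAM libraries and 72.9% ± 4.2 among CD11b+TAM libraries (SD, 3 each). The FPKM ratio of Nrp2 to Kdr was 0.164 ± 0.007 in con and 2.31 ± 0.13 in Ht. These shares are given as descriptions, with no test.

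**Figure D3:**
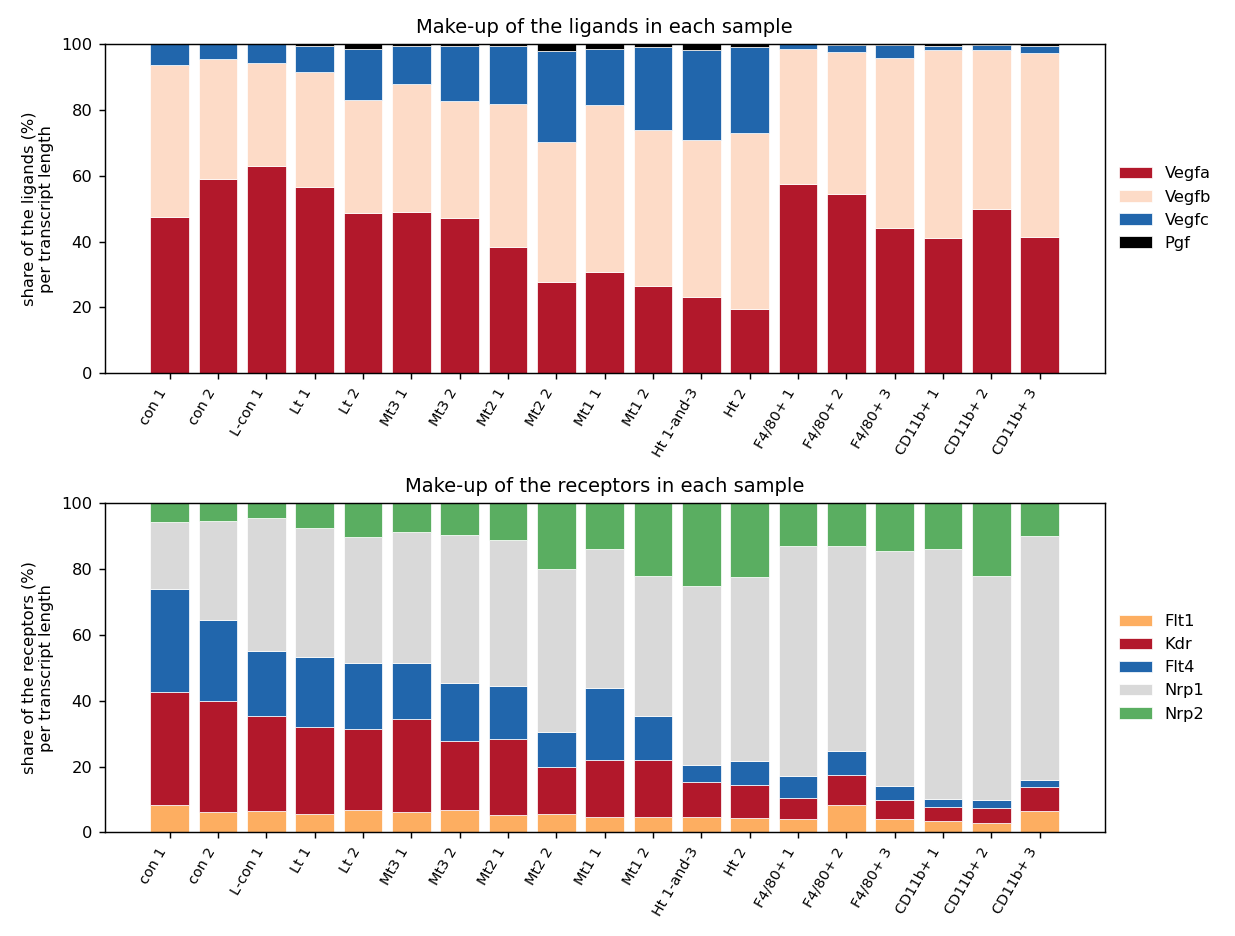
Share of each ligand (upper panel) and each receptor (lower panel) in the summed FPKM of its family, in percent, for the 19 samples; each bar is 1 sample and colors are genes. From con to Ht the Vegfa share of ligands goes from 47.6% to 59.0% down to 19.4% to 23.2%, and the combined share of Flt1, Kdr and Flt4 among receptors shrinks as Nrp1 and Nrp2 grow.

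The promoter windows of the 5 members that changed both from Lt to Ht and from con to Ht are shown for the genes that moved together, Vegfa, Kdr and Flt4 downward and Vegfc and Nrp2 upward under TMM. They are RefSeq windows of GRCm38.p6 from 250 bases before to 50 after the start of transcription, read 5′ to 3′ on the gene's strand, with capitals marking GGGCGG (GC box) and GGAAG (core of ETS factor sites, common in endothelial genes) on either strand. All 9 members had a window, with 2 each for Vegfa and Pgf, of which the nearer to the listed gene start was taken. The windows lie at chr17:46032328-46032627 (Vegfa, minus strand), chr5:75978406-75978705 (Kdr, minus), chr11:49609429-49609728 (Flt4, plus), chr8:54077282-54077581 (Vegfc, plus) and chr1:62703067-62703366 (Nrp2, plus).
Vegfa: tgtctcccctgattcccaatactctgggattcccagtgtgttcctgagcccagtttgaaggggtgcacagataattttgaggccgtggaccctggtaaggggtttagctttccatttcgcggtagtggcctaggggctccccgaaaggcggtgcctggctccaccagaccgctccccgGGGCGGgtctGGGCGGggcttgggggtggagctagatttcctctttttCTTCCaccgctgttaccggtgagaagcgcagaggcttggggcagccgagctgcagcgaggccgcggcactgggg
Kdr: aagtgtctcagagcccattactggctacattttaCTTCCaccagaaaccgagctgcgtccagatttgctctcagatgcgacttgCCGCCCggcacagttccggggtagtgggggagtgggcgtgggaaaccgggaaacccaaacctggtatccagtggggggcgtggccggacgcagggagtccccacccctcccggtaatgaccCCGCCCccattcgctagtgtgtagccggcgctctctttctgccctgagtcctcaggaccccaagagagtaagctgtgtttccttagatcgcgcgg
Flt4: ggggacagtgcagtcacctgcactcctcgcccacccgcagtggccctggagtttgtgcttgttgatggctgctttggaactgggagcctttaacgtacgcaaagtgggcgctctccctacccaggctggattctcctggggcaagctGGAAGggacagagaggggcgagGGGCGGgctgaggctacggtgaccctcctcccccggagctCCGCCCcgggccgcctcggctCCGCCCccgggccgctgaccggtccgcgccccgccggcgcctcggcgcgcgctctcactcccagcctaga
Vegfc: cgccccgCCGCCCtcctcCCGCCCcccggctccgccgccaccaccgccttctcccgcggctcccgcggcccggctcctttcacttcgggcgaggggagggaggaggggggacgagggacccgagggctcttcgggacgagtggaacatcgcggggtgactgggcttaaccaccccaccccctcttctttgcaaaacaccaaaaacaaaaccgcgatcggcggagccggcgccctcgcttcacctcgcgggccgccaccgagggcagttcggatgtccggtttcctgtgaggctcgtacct
Nrp2: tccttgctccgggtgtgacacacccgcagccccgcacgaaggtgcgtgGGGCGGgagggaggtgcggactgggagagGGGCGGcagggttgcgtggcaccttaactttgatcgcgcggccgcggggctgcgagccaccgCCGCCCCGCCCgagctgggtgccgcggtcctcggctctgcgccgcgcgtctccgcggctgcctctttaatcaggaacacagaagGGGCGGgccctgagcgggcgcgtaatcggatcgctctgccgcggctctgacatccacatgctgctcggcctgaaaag
All 5 windows, and those of the other 4 members, held GGGCGG, with 5 matches in Nrp2, 2 of them overlapping, while 35.7% of 32851 promoter windows of this length held it. GGAAG occurred in 6 of the 9 windows, those of Vegfa, Pgf, Kdr and Flt4 (1 match each), Flt1 (3) and Nrp1 (4), and not in Vegfb, Vegfc or Nrp2, and 71.4% of all windows held it. ACGTG, the core of hypoxia-response sites, occurred in none of the 9 windows and in 19.6% of all, and TGANTCA (AP-1) in none of the 9 and 7.81% of all. The 9 windows were 60.7% to 75.3% G or C, against a median of 52.7% over all windows. These matches describe letters in a short window, and no binding was measured.

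From con to Lt none of the 9 members was called, beside 12.7% of all genes. At an unadjusted p under 0.05 by edgeR were 5 members, beside 4917 of the 17187 genes tested. Vegfc (log2 fold change 0.94, SE 0.38, edgeR adjusted p = 0.142) and Nrp2 (0.63, SE 0.23, edgeR adjusted p = 0.110) missed the threshold. Pgf was at an edgeR adjusted p of 0.0660, was called by DESeq2 (adjusted p = 0.0315) and without the filter on low counts (edgeR adjusted p = 0.00250), and without Lt 1 Vegfc was called (1.33, edgeR adjusted p = 0.0460).

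From Lt to Ht 5 of 9 were called, beside 31.9% of all genes. Vegfc (log2 fold change 1.16, SE 0.36, edgeR adjusted p = 0.0276) and Nrp2 (1.31, SE 0.23, edgeR adjusted p = 0.00380) rose, and Vegfa (-1.32, SE 0.21, edgeR adjusted p = 0.00318), Kdr (-1.43, SE 0.33, edgeR adjusted p = 0.00904) and Flt4 (-1.84, SE 0.37, edgeR adjusted p = 0.00540) fell. With 1 sample left out, Vegfc ranged from 0.77 to 1.75 on the log2 scale and Kdr from -1.47 to -1.38. The size of the change thus depended on single samples for Vegfc and little for Kdr. Both kept their call in only 1 of these 4 fits, each of which leaves 1 sample in a group. Under total-count scaling, which put the median gene at 0.87 and 36.2% of genes higher and 12.1% lower instead of 11.7% and 20.2%, Vegfa (-0.42), Kdr (-0.53) and Flt4 (-0.95) lost their calls, Vegfb (1.42) and Nrp1 (1.26) were called higher, so that 4 members were higher and 0 lower, and Flt1, at -0.61 under TMM, stood at 0.27.

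From medium- to high-content metastases (Mt to Ht) 2 of 9 were called, Kdr (log2 fold change -1.23, SE 0.29, edgeR adjusted p = 0.0194) and Flt4 (-1.60, SE 0.32, edgeR adjusted p = 0.0125), beside 14.9% of all genes, of which 1.495% were higher and 13.4% lower. Vegfa (-0.75), Flt1 (-0.53) and Nrp2 (0.58) passed on p but not on size. Over the 6 Mt libraries Kdr ran from 34.3 through a median of 55.5 to 95.9 CPM and Flt4 from 23.2 through 47.0 to 57.5, and both Ht samples lay below all of them. Without either Ht sample neither was called (edgeR adjusted p from 0.0845 to 0.170), and edgeR then called 0 genes in all against 2563 with both, and without Mt2 1 Kdr fell by 0.97 on the log2 scale, short of the fold threshold. Under total-count scaling, which gave 15.1% of genes higher and 10.3% lower, Kdr (-0.64) and Flt4 (-0.999, just under the threshold) were not called and Nrp2 (1.10) was.

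The marker lists differed in how they changed from con to Ht. Of 18 endothelial markers 7 were called, 2 higher and 5 lower, beside 49.9% of all genes, with a median log2 fold change of -0.53 under TMM and 0.66 under total-count scaling, while 7 of 9 sinusoidal endothelial markers were lower, with a median of -3.51 and -2.32. Stab2, a scavenger receptor of sinusoids, was at -3.51 (edgeR adjusted p = 4.79e-04), whereas Cd34, a marker of capillary and newly formed vessels, rose by 5.78 (edgeR adjusted p = 1.39e-04) and Cdh5, the endothelial cadherin, was at -0.05. All 13 hepatocyte markers were lower (median -5.69). Over the 13 tissue samples, which share this gradient of liver content, log2(CPM + 1) of the hepatocyte list had a Pearson r of 0.971 with Flt4, 0.946 with Kdr, 0.905 with Vegfa, -0.845 with Nrp2 and -0.791 with Vegfc. For the sinusoidal endothelial list r was much the same, at 0.966 with Flt4, 0.954 with Kdr, 0.926 with Vegfa, -0.879 with Nrp2 and -0.82 with Vegfc. Stromal and mural markers summed to 380 to 540 CPM in con and 6503 to 7334 CPM in Ht, with 8 of 13 higher and 2 lower, and 10 of 13 macrophage markers were higher and 1 lower. The stromal list had r = 0.90 with Vegfc and 0.887 with Nrp2, and the macrophage list 0.894 and 0.874. The part of these cells in the members' changes was not tested.

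Set against the mean log2(CPM + 1) of the 18 endothelial markers in the same sample, Kdr stood 2.05 ± 0.33 above it in con and 0.52 ± 0.02 in Ht, and Flt4 1.63 ± 0.09 above and 0.29 ± 0.32 below (-0.29) it. Flt1 was at 0.42 ± 0.03 and -0.08 ± 0.07 (SD, n = 2 each). Nrp1 went the other way, from 1.72 ± 0.74 to 3.003 ± 0.05, and Nrp2 from -0.11 ± 0.27 to 2.08 ± 0.10. The samples of con and Ht, 2 each, did not overlap for any of the 5 receptors on this scale. The share of all genes that separate in this way was not counted, so this is no result about the receptors. With Pecam1, Cdh5 and Tie1 in place of the list the values of Kdr were 0.97 in con and -0.53 in Ht, those of Flt4 0.55 and -1.34, those of Flt1 -0.66 and -1.12, those of Nrp1 0.64 and 1.96 and those of Nrp2 -1.19 and 1.03.

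**Figure D4:**
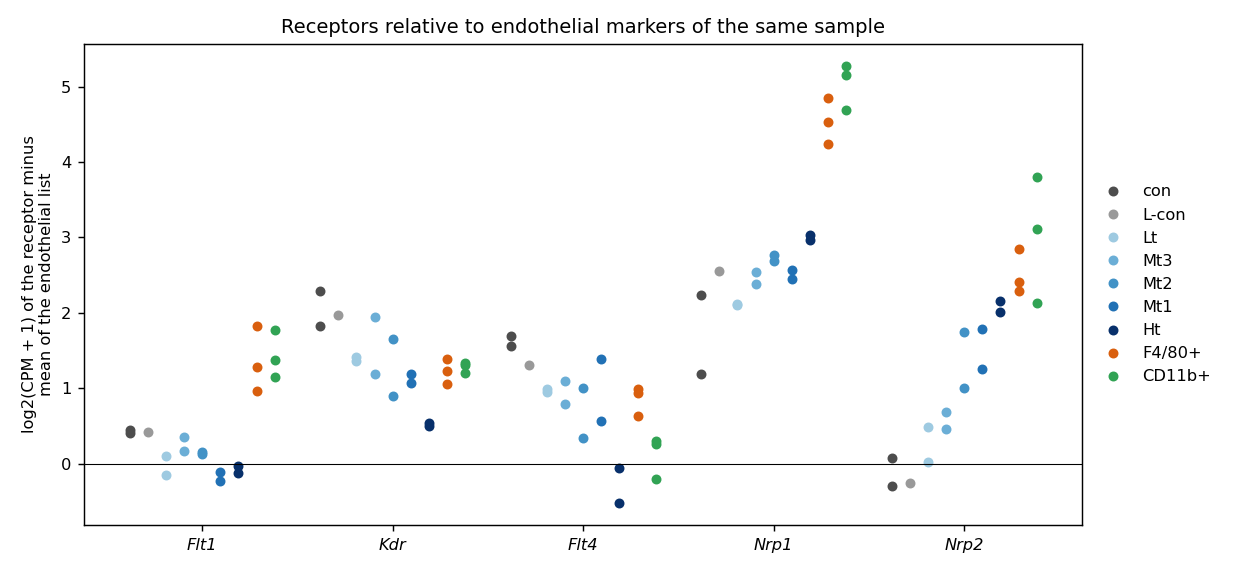
Log2(CPM + 1) of each receptor minus the mean of 18 endothelial markers in the same sample (vertical axis), by receptor along the horizontal axis and colored by group; each point is 1 sample. Kdr and Flt4 are lower in Ht (0.52 and -0.29 on average) than in con (2.05 and 1.63), while Nrp1 and Nrp2 are higher in Ht and in sorted cells.

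F4/80+TAM and CD11b+TAM were compared with Mt2 tissue, the class of metastasis that the Methods name as their source. Whether they came from the sequenced Mt2 samples themselves is not given. In F4/80+TAM 4 of 9 members were lower, beside 42.3% of all genes called: Vegfc (log2 fold change -3.47, SE 0.32, edgeR adjusted p = 7.20e-07), Pgf (-3.15, SE 0.72, edgeR adjusted p = 0.00192, from 1, 5 and 4 counts), Kdr (-1.59, SE 0.28, edgeR adjusted p = 2.53e-04) and Flt4 (-1.34, SE 0.33, edgeR adjusted p = 0.00354). In CD11b+TAM 5 of 9 were lower, beside 43.9% of all genes: Vegfc (-4.28, SE 0.33), Flt4 (-3.27, SE 0.35), Kdr (-2.57, SE 0.29), Pgf (-1.82, SE 0.65) and Flt1 (-1.12, SE 0.29), with edgeR adjusted p from 1.64e-07 to 0.0286. Vegfa did not pass in F4/80+TAM (0.47, SE 0.28, edgeR adjusted p = 0.170) or in CD11b+TAM (-0.01, SE 0.28, edgeR adjusted p = 0.989). The 2 Mt2 libraries differed in liver content, with hepatocyte markers at 108550 CPM in Mt2 1 and 28185 CPM in Mt2 2. Without Mt2 1, Kdr (-0.92) and Flt4 (-0.73) were not called in F4/80+TAM and Flt1 (-0.94) not in CD11b+TAM, and without Mt2 2 Pgf was called in neither (-2.16 and -0.84). In CD11b+TAM Pgf was also not called without CD11b+ 1 (-1.79) or CD11b+ 2 (-1.64) or with only the groups compared (-1.81, edgeR adjusted p = 0.0574), nor Flt1 (-0.99) without CD11b+ 2, where Nrp2 was called (-1.07).

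Against Ht, the tissue with least liver, 3 of 9 members were called in F4/80+TAM, beside 39.7% of all genes. Vegfa was higher (log2 fold change 1.10, SE 0.29, edgeR adjusted p = 0.00514), with all 3 F4/80+TAM libraries above both Ht samples under TMM but not under total-count scaling (53.7 CPM in F4/80+ 3 against 57.3 in Ht 1 and 3), and Vegfc (-3.70, SE 0.32) and Pgf (-3.17, SE 0.71) were lower. The Vegfa call was lost without F4/80+ 1 (0.77), without Ht 2 (edgeR adjusted p = 0.0511), under total-count scaling (0.67, edgeR adjusted p = 0.0713) and without the filter on low counts (0.97). That scaling put the median gene at -0.42 instead of 0.00, and Nrp2 (-1.21) was then called lower. In CD11b+TAM 5 of 9 were lower, beside 41.3% of all genes, namely Vegfc (-4.52), Flt4 (-1.96), Pgf (-1.83), Kdr (-1.46) and Nrp2 (-1.04), with edgeR adjusted p from 1.70e-07 to 0.0259. Nrp2 there lost its call without Ht 1 and 3, Ht 2, CD11b+ 1 or CD11b+ 3 (-0.95, -1.05, -0.93 and -0.69), with Ht 3 left out of Ht (-0.998) and with only the groups compared (-1.11, edgeR adjusted p = 0.0852), and Pgf without Ht 1 and 3, CD11b+ 1 or CD11b+ 2 (-1.002, -1.80 and -1.65). Under total-count scaling Flt1 (-1.15) was called as well. The comparisons share their tissue or sorted samples and are not independent of one another.

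**Figure D5:**
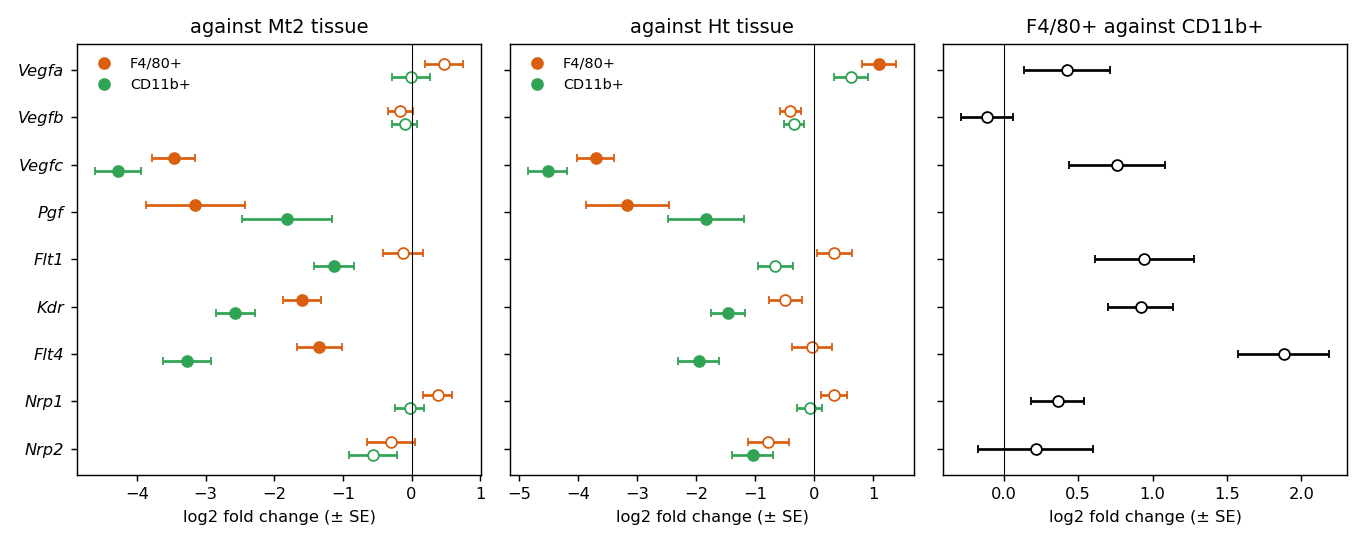
Log2 fold change (horizontal axis, bars ± SE) of the 9 genes in F4/80+TAM and CD11b+TAM against Mt2 tissue, against Ht tissue, and against each other; filled points are called and open points are not, and Pgf was not tested in the last panel. Vegfc is 3.47 to 4.52 lower in both sorted populations than in tissue, while Nrp1 lies between -0.07 and 0.38.

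Between the sorted populations the kinase receptors had higher means in F4/80+TAM, but none of the 8 members tested was called, beside 0.0771% of all genes (11 of 14263). Pgf was too low to be tested. Flt4 had the largest difference (log2 fold change 1.88, SE 0.30, edgeR adjusted p = 0.0666), followed by Flt1 (0.95, SE 0.33, edgeR adjusted p = 0.416) and Kdr (0.92, SE 0.22, edgeR adjusted p = 0.184). In all 3 the 3 F4/80+TAM libraries lay above the 3 of CD11b+TAM. The same held for Vegfc and Nrp1, whereas for Pgf they lay below. The share of all genes that separate in this way was not counted. Vegfc (0.76, SE 0.32) was also at an unadjusted p under 0.05 (0.0480 by edgeR), 4 members in all, beside 1503 of the 14263 genes tested. Flt4 passed in DESeq2 (adjusted p = 3.73e-06), without the filter on low counts (edgeR adjusted p = 0.00155) and without CD11b+ 3 (1.71, edgeR adjusted p = 0.0413). It also passed with replicate number as a block (edgeR adjusted p = 0.0237). Vegfa (0.43, SE 0.29, edgeR adjusted p = 0.550), Nrp1 (0.36, SE 0.18) and Nrp2 (0.21, SE 0.38) did not pass.

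Marker lists of other cells also differed between these libraries, in both directions, with no marker called by edgeR. Of 17 endothelial markers tested, 16 had a positive difference toward F4/80+TAM, with a median log2 difference of 1.27. Their summed level was 246 to 340 CPM in F4/80+TAM, 167 to 176 in CD11b+TAM and 561 to 563 in Ht. The 9 sinusoidal markers summed to 777 to 1025 CPM and 622 to 746 CPM (median log2 difference 1.09, 9 of 9 positive) against 570 to 689 CPM in con, although their mean log2(CPM + 1) was 4.49 and 3.42 against 5.83 in con, the 5 Kupffer cell markers to 587 to 2348 and 51.7 to 110 CPM (median log2 difference 3.68), and the 9 neutrophil markers to 162 to 648 and 1051 to 4729.5 CPM (-3.39). Relative to the endothelial list, Kdr stood at 1.23 ± 0.17 in F4/80+TAM and 1.28 ± 0.07 in CD11b+TAM and Flt1 at 1.36 ± 0.44 and 1.43 ± 0.31. Flt4 stood at 0.86 ± 0.20 and 0.12 ± 0.28 (SD, n = 3 each) without overlap, but at -0.71 and -0.85 relative to Pecam1, Cdh5 and Tie1. The part of endothelial or Kupffer cells in the receptor values of the sorted libraries was not tested.

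Genes that work with the family were followed through lists of partners, signal relays, target genes and hypoxia response genes. From con to Ht 19 of 26 partners tested were called, 16 higher and 3 lower, beside 49.9% of all genes called, 25.8% higher and 24.1% lower, with a median log2 fold change of 2.07 beside 0.09 over all genes (under total-count scaling 19 higher and 2 lower, beside 51.3% and 13.1% of all genes, and 3.25 beside 1.28). Thbs1, an inhibitor of angiogenesis, rose by 8.07 (SE 0.80) to 499 ± 9.6 CPM in Ht, and Thbs2 by 5.11 (SE 0.59). Sema3a, a neuropilin ligand that competes with VEGF-A, was at least 173-fold higher, from 1 and 3 counts in con. Ptprb, the endothelial phosphatase, fell by 2.92 (SE 0.46), Ccbe1, a cofactor of VEGF-C processing, by 2.60 (SE 0.41) and Plxna2, a semaphorin co-receptor, by 1.23 (SE 0.29), all at an edgeR adjusted p of 0.00458 or less. Sorted cells were low in most partners, with 18 of 26 lower in F4/80+TAM and 21 in CD11b+TAM than in Mt2, beside 25.2% and 26.3% of all genes lower, yet Thbs1 was at 573 to 1366 CPM in F4/80+TAM and 311 to 1419 CPM in CD11b+TAM.

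Of the 45 genes of the signal relay 16 were called from con to Ht, 13 higher and 3 lower, beside 49.9% of all genes (median 0.51; under total-count scaling 31 and 1, beside 51.3% and 13.1% of all genes). Nfatc2, a transcription factor activated by calcium, rose by 4.81 (SE 0.46), the kinase Src by 4.49 (SE 0.38) and the phospholipase Pla2g4a by 3.99 (SE 0.45). The adaptor Shb fell by 2.69 (SE 0.55), the small heat shock protein Hspb1 by 2.02 (SE 0.30) and Map2k2 by 1.14 (SE 0.22). Of the 25 target and tip cell genes 14 were called, 13 higher and 1 lower, beside 49.9% of all genes called and 25.8% higher (median 1.33; under total-count scaling 17 and 0, beside 51.3% and 13.1% of all genes). Aplnr, the apelin receptor, was at least 71.5-fold higher, Ptgs2 at least 48.4-fold and Egr3 at least 12.0-fold, all from 0 or 1 counts in con, and Dll4, the Notch ligand of tip cells, fell by 1.33 (SE 0.24). Ptgs2 was higher still in sorted cells, at 66.95 to 184 CPM in F4/80+TAM and 138 to 242.5 in CD11b+TAM against 13.3 ± 1.5 in Ht.

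The 26 hypoxia response genes had no common direction from con to Ht, with 4 higher, 6 lower, beside 49.9% of all genes called, and a median of 0.00 (under total-count scaling 13 and 2, beside 51.3% and 13.1% of all genes). Pfkfb4 rose by 3.50 (SE 0.53) and Hk2 by 3.27 (SE 0.39), both enzymes of sugar metabolism, and Car9, a carbonic anhydrase, was at least 4.69-fold higher. Bnip3, a mitophagy receptor, fell by 3.82 (SE 0.44), Epas1, which encodes HIF-2α and is rich in endothelium and hepatocytes, by 3.81 (SE 0.60) and Pdk1 by 1.67 (SE 0.41). In sorted cells Pfkfb4 was at 95.1 to 124 CPM and Hk2 at 93.9 to 159.9 CPM, against 17.4 ± 1.7 and 23.1 ± 2.4 in Ht. Between F4/80+TAM and CD11b+TAM no gene of the 4 lists was called by edgeR, beside the 0.0771% of all genes.

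Over the 13 tissue samples, the genes most like each member other than Flt4 by Pearson r of log2(CPM + 1), among 12590 genes, are given as a description, since all samples share the gradient of liver content. Vegfa was closest to Pdhb, Bco2 and Gm27463 (r = 0.99 for each) and Kdr to Tcp11l2, Tmem135 and Magi1 (0.99 each). Vegfc was closest to Greb1l, Wnt9a and Bcl2l11 (0.99 each) and Nrp2 to Trio, Arhgef17 and Sipa1l3 (0.99 each). The likeness was weaker for Pgf (Hdgfl2, Snrpf and Manbal, 0.95 each), Flt1 (Cmc1, 2010315B03Rik and Upp2, 0.95, 0.94 and 0.94), Nrp1 (Pdgfc, Atp11a and Slc41a1, 0.93, 0.90 and 0.90) and Vegfb (Tbc1d2b, Zmiz1 and Brd1, 0.92, 0.92 and 0.90). Among the members themselves Vegfc and Nrp2 had r = 0.97, Vegfa and Kdr 0.94, Kdr and Flt4 0.93, and Vegfa and Nrp2 -0.93.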

How the data were processed

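The authors deposited raw counts of reads per gene for 14 tissue and 6 sorted-cell libraries in separate tables, without normalization or pooling, and a gene length column in bases (the deposited values of unit other), which gave FPKM. The submitters' processing notes name CASAVA, HISAT2 2.0.5 and featureCounts 1.5.0-p3 with GRCm38; whether counting used strand is not given in the sources used here. Of the listed genes in GENCODE M21, 98.3% had the same position, all 9 members among them. The tables were joined by gene identifier, and 0 columns of per-sample values were left unmapped.

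Counts were scaled by TMM, filtered by filterByExpr and fitted with glmQLFit and glmQLFTest of edgeR 4.0.16 in R 4.3.3, with adjustment over all genes tested: a tissue fit (13 samples), a fit of sorted cells (6) and a joint fit (19). Standard errors came from the F statistic. CPM and FPKM used TMM over all 19 samples. The alternatives were DESeq2 1.42.0, other scalings, no filter, no fold threshold, fewer groups, a replicate block, other handling of Ht and each sample left out. The scripts were tested on simulated data. Bounds were set against 3 counts per library and cover counting error only.

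The members, lists and tests were chosen with earlier results of these data known. All members were named; of each pathway list the 3 highest and 3 lowest of the genes called from con to Ht; and the 3 genes most like each member with a mean log2 CPM of at least 1. The genes most like Flt4 are not reported here. Marker genes named singly (Stab2, Cd34, Cdh5) were chosen after their values were seen. Groups came from the sample labels. L-con, with 1 library, was not tested.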

Additional observations from a re-analysis of the deposited data

How the results depend on the processing

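The count of members called from con to Ht (6 of 9) stayed within 1.5 times under every alternative run, and so did those of CD11b+TAM against Mt2 and F4/80+TAM against Ht. The members and directions behind a count could still change. Under total-count scaling 5 were higher and 1 lower from con to Ht, instead of 3 and 3. In F4/80+TAM against Ht 0 were higher and 3 lower, instead of 1 and 2. From con to Lt 1 member was called by DESeq2, 1 without the filter on low counts and 0 to 1 with a sample left out. Leaving out a sample gave 3 to 5 members from Lt to Ht, 0 to 2 from Mt to Ht, 0 to 1 for F4/80+TAM against CD11b+TAM, 2 to 4 for F4/80+TAM against Mt2 and 3 to 4 for CD11b+TAM against Ht. From Mt to Ht 1 was called under total-count scaling and 5 without the fold threshold. For F4/80+TAM against CD11b+TAM 1 was called by DESeq2, 1 without the filter and 1 with the replicate block. A left-out arm with 1 sample was assumed to vary like the other groups.

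The labels share replicate numbers and do not say whether samples with the same number share an animal. Deviations of samples with the same number correlated at -0.384 to 0.143, so the numbers were not taken as pairs. With the replicate block Flt4 between the sorted populations was called (1.88, edgeR adjusted p = 0.0237) and Nrp2 in CD11b+TAM against Ht lost its call (-0.97); no other member changed. Crossed numbers, chosen after seeing the data, left 0 members called from con to Lt and 2 from Mt to Ht.

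The values that changed sign belong to members that TMM-scaled edgeR with all samples did not call in the comparison concerned. Under total-count scaling they were Vegfa and Flt1 from con to Lt (0.079 and 0.064), Flt1 from Lt to Ht (0.27), con to Ht (0.33) and Mt to Ht (0.035), Vegfa in CD11b+TAM against Mt2 (0.026), and Flt1 and Nrp1 in F4/80+TAM against Ht (-0.089 and -0.093). Vegfa in CD11b+TAM against Mt2 was at 0.011 by DESeq2, 0.011 with DESeq2's size factors in edgeR, 0.056 without the filter, 0.22 with the replicate block and 0.012 with only the groups compared; Nrp1 there was at 0.032 without the filter and 0.034 with the block. Flt4 in F4/80+TAM against Ht was at 0.17 with the block, 0.064 with Ht as 3 samples and 0.071 without Ht 3. With a sample left out the ranges were -0.35 to 1.17 for Pgf from Lt to Ht, -0.067 to 0.27 for Vegfb from con to Ht, -0.25 to 1.04 for Pgf from Mt to Ht, -0.12 to 0.75 for Nrp2 between the sorted populations, -0.54 to 0.10 for Flt1 in F4/80+TAM against Mt2, -0.20 to 0.26 for Vegfa and -0.13 to 0.14 for Nrp1 in CD11b+TAM against Mt2, -0.068 to 0.58 for Flt1 and -0.23 to 0.31 for Flt4 in F4/80+TAM against Ht, and -0.12 to 0.092 for Nrp1 in CD11b+TAM against Ht. The cause was not tested. Low counts limit Pgf, at 0 to 2 counts in con. Of the values of the receptors relative to the endothelial list, 58 moved by more than the spread between replicates under another pseudocount or with Pecam1, Cdh5 and Tie1 as the reference, and 32 did not. Over all genes, the 11 called between the sorted populations became 300 by DESeq2, 242 without the filter, 78 with the replicate block, 6 under total-count scaling and 0 to 136 with a sample left out; the 5480 from Lt to Ht became 8297 and the 2563 from Mt to Ht 4360 under total-count scaling (3888 without the fold threshold); with a sample left out the 2177 from con to Lt fell to as few as 735 and the 5480 to 2786.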

Other observations

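In L-con, the tumor-free liver of a metastasis-bearing mouse on day 12, Nrp1 was at 142 CPM against 58.2 and 91.5 CPM in con, and Vegfb at 17.6 CPM against 31.4 and 25.01 CPM. Vegfa (95.3 CPM), Kdr (94.1 CPM) and Nrp2 (19.3 CPM) lay near con. Macrophage markers summed to 1419 CPM in L-con and 605 to 870 CPM in con, and Kupffer cell markers to 953 and 333 to 445 CPM. L-con is 1 library, so these differences have no replicate check, and the part of these cells in the Nrp1 value was not tested.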
